A study of Mus musculus with 10 samples.

Results

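The 42 genes described here build and service the photoreceptor cilium and the discs of the outer segment. They were chosen by gene symbol, as genes of these structures and with earlier results of these data known, out of the 36115 genes of a retinal count table. The table holds RNA sequencing counts from retinas of naive, untreated mice aged 3 months. It has 5 libraries of wild type, called W1 to W5, and 5 libraries with the genotype B6.129S2-Il6tm1Kopf/J, called K1 to K5 or labelled knockout. The wild type carries the strain background label C57BL/6. The interrupting allele was made in 129S2 cells and bred onto B6, so its effect and that of any other difference between the lines cannot be told apart. It interrupts interleukin-6 (Il6), the gene of an inflammatory cytokine, in every cell of the body. The labels do not say that each library is a separate animal, so a p-value covers only the variation among these samples, some of which may be technical.

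A rod or cone photoreceptor carries a modified primary cilium whose membrane is expanded into a stack of discs, the outer segment, where light is captured. Outer segment proteins are made in the cell body and pass through the connecting cilium, the counterpart of the transition zone of other cilia. Intraflagellar transport (IFT) trains move cargo along the axoneme, with IFT-B linked to outward and IFT-A to return movement, and the BBSome, a coat-like complex, carries membrane proteins out of the cilium. Mutations in many of these genes cause retinal degeneration, Bardet-Biedl syndrome or Leber congenital amaurosis.

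Total counts ran from 30433373 to 38857374 reads a library, and the 42 genes together took 1.60% to 2.01% of them. Reads of Il6 numbered 0, 0, 1, 1 and 1 over wild type and 3, 3, 5, 7 and 4 over K1 to K5, so the few reads went against the labels. An interrupted allele can still give reads outside the insertion, so gene-level reads do not check it, and directions below are those of the libraries as labelled. Every marker listed for the retinal neurons (rods among them) and Muller glia had reads in all 10 libraries. Levels are in CPM, counts per 1000000 of the scaled library total. Markers of the pigment epithelium, which lies outside the retina, summed to 34.8 to 438 CPM over W1 to W5 and 180.3 to 345 CPM over K1 to K5, and markers of motile cilia to 45.8 to 63.8 CPM over W1 to W5 and 53.2 to 59.6 CPM over K1 to K5. All 10 libraries had between 2514 and 3338 reads of the Y-linked gene Ddx3y and between 3 and 8 of Xist, the RNA of the inactive X chromosome of females, so no library stood apart by sex.

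Of the 42 genes, all passed the filter on low counts, 1 was called higher in libraries labelled knockout, and none was called lower. A call is an edgeR quasi-likelihood test with a Benjamini-Hochberg adjusted p under 0.05 over all 18965 genes tested. The share called was 2.38% of the 42 genes, against 2.03% of all tested genes (0.859% higher and 1.17% lower), so the count is close to the background. DESeq2 and limma-voom called the same gene and no other of the 42, where they called 3.7% and 1.8% of all tested genes. Among the 42, 8 had an unadjusted p under 0.05 (3 with higher and 5 with lower values in K1 to K5), against 13.8% of all tested genes. Their median log2 fold change, libraries labelled knockout over wild type, was 0.0053 (22 positive, 20 negative) and that of all tested genes was 0.0018. In the authors' deposited table, the comparison of knockout over control gave an adjusted p under 0.05 to 1 of the 42, the same gene, Bbs7. The plot of fold changes by role shows Bbs7 apart from the rest.

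**Figure D1:**
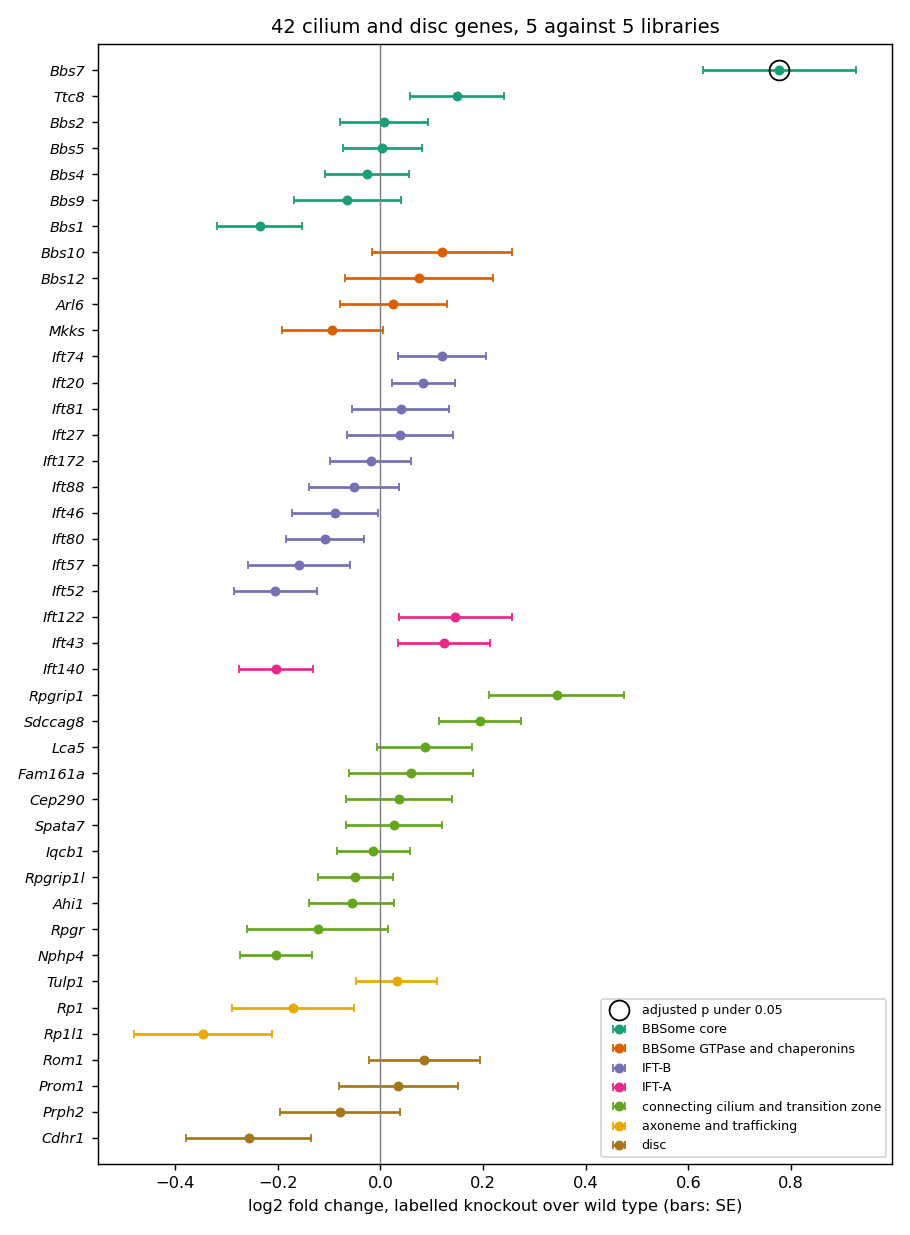
Log2 fold change of each of the 42 genes (x axis, libraries labelled knockout over wild type) with its standard error as bars, sorted by value within each role and coloured by role. The black ring marks Bbs7 at 0.78, the only gene with an adjusted p under 0.05; the others lie between -0.35 (Rp1l1) and 0.34 (Rpgrip1).

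Bbs7, the called gene, encodes a beta-propeller subunit of the BBSome that joins Bbs2 and Bbs9 in the early steps of assembly. Its start region is shown because it holds a match to the X-box, the motif bound by RFX transcription factors that switch on many cilium genes. RefSeq windows of 250 bases before to 50 after a gene start (GRCm38.p6) were found for 36 of the 42 genes, 44 windows in all. They were searched on both strands for the X-box, GTTNCC and after 2 free bases GGNAAC, for its half-site GTTGCC, which can lie inside it, and for TAATCC, the core bound by the photoreceptor factor CRX. The Bbs7 stretch below lies at chr3:36613478-36613639 on the minus strand, ends just before the gene as deposited, and carries its X-box match (capitals) 121 to 108 bases before the RefSeq start. The Ahi1 line holds only the matching bases, 21 to 34 bases after its start on the plus strand of chromosome 10.
Bbs7: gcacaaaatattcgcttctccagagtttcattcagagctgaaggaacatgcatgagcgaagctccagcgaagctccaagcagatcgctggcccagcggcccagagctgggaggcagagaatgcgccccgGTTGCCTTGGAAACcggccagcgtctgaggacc
Ahi1: GTTACCTAGGCAAC

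These 2 windows of 44 (4.55%) were the only ones of the 42 genes with the X-box letters, against 0.451% of all 32851 windows. The half-site was in 12 of 44 windows (27.3%), against 12.5% of all windows. It was found in 11 genes, namely Ahi1, Lca5 and Nphp4 of the connecting cilium, Bbs1, Bbs5 and Bbs7 of the BBSome, and Ift27, Ift57, Ift88, Ift140 and Ift172 of IFT. TAATCC was in 2 windows (4.55%), those of Bbs1 and Rpgrip1, against 7.06% of all windows. These matches describe letters in a window and are not evidence of binding, and the windows were searched after the expression values were known.

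Bbs7 (ENSMUSG00000037325.10, chromosome 3, 36573142 to 36613477, minus strand) rose in libraries labelled knockout. It stood at 112, 65.0, 84.2, 121 and 122 CPM across W1 to W5, and at 183, 135, 183, 189 and 175 CPM across K1 to K5. Every library labelled knockout lay above every wild-type library, with W2 and W3 lowest of all and K2 the lowest of its group. Such a separation of the groups was seen in 1 of the 42 genes, against 3.48% of all tested genes (1.76% with higher and 1.72% with lower values in K1 to K5). The means were 101 ± 25.2 CPM for wild type against 173 ± 21.8 CPM for those labelled knockout (SD, n = 5), a 1.71-fold difference. The log2 fold change was 0.78 ± 0.15 (SE, n = 5), and the edgeR adjusted p was 0.0119. The gene was called under all 18 alternative settings, with adjusted p from 3.19e-05 to 0.0440.

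None of the 6 other BBSome core genes was called, and 1 of them had an unadjusted p under 0.05. Bbs1, the subunit that meets the membrane GTPase Arl6, had the lowest fold change of the 7 core genes, at -0.24 ± 0.083 (SE, n = 5, edgeR adjusted p = 0.196). It stood at 128, 122, 131, 114 and 138 CPM across W1 to W5, and at 129.8, 107, 103, 102 and 96.1 CPM across K1 to K5. K2 to K5 lay below all wild-type libraries and K1 lay among them, and without K1 Bbs1 was called lower at -0.31 with an edgeR adjusted p of 0.0349. Bbs2, the propeller partner of Bbs7 and the most abundant core gene per kilobase of exon, stood at 119, 95.5, 121, 129 and 121 CPM across W1 to W5, and at 123, 99.9, 119, 122 and 125 CPM across K1 to K5. The groups overlapped, W2 and K2 were the lowest of their groups, and the log2 fold change was 0.0066 ± 0.086 (edgeR adjusted p = 0.985). Bbs4, Bbs5, Bbs9 and Ttc8, which encode a subunit with tetratricopeptide repeats, a lipid-binding subunit, a scaffold and a second repeat subunit, had log2 fold changes of -0.027, 0.0039, -0.065 and 0.15, and none was called.

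The proportions of the core transcripts can also be given within each library. Per kilobase of exon, Bbs7 made up 13.0, 8.42, 9.48, 13.7 and 13.0% of the summed level of the 7 core genes in W1 to W5. In K1 to K5 it made up 18.01, 17.1, 19.4, 18.7 and 18.7%. The mean share was 11.5 ± 2.37% in wild type and 18.4 ± 0.867% in libraries labelled knockout (SD, n = 5), with no test since it restates the call. The summed level of the 6 other core genes was 654 ± 37.6 CPM over W1 to W5 and 638 ± 60.7 CPM over K1 to K5.

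**Figure D2:**
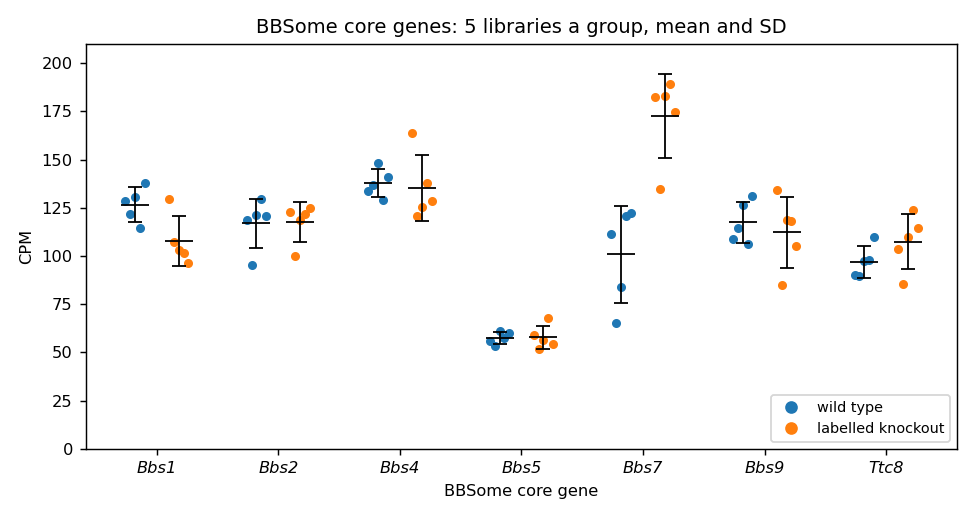
Level of the 7 BBSome core genes (y axis, CPM from 0) in each library, 5 wild type (blue) and 5 labelled knockout (orange), with the mean and SD in black. In Bbs7 the orange points start at 135 CPM, above the highest blue point at 122 CPM, and in the 6 other genes the colours overlap.

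The GTPase that recruits the BBSome and the chaperonin-like proteins that fold and assemble it were not called, and none of these 4 genes had an unadjusted p under 0.05. Arl6, that GTPase, was the most abundant of them per kilobase and stood at 104, 129.6, 136, 104 and 116 CPM across W1 to W5, and at 139.8, 106, 105, 139 and 109.7 CPM across K1 to K5. Its log2 fold change was 0.025 ± 0.10 (edgeR adjusted p = 0.948). Bbs10, a chaperonin-like protein, stood at 14.6, 14.3, 16.1, 13.6 and 13.6 CPM across W1 to W5, and at 14.4, 10.4, 16.5, 19.8 and 17.4 CPM across K1 to K5. K2 was the lowest and K4 the highest of the 10 libraries, and the log2 fold change was 0.12 ± 0.14 (edgeR adjusted p = 0.765). Mkks, another chaperonin-like protein, stood at 42.6, 45.7, 48.7, 39.0 and 33.6 CPM across W1 to W5, and at 45.4, 39.3, 35.8, 40.3 and 35.6 CPM across K1 to K5, with overlapping groups and a log2 fold change of -0.094 ± 0.098 (edgeR adjusted p = 0.739). Bbs12, the remaining chaperonin-like gene, had a log2 fold change of 0.076. It lies on chromosome 3 near Bbs7 and ranged from 19.8 CPM in W2 to 38.7 CPM in W4.

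None of the 10 IFT-B genes was called, Ift52 alone had an unadjusted p under 0.05, and their log2 fold changes ran from -0.21 to 0.12. Ift52, a core subunit needed for cilium assembly, stood at 33.8, 37.0, 34.0, 33.9 and 34.2 CPM across W1 to W5, and at 35.5, 25.7, 30.5, 28.8 and 29.5 CPM across K1 to K5. In wild type 4 libraries lay within 33.8 to 34.2 CPM with W2 above them, and K1 lay within the wild-type range while K2 to K5 lay below it. Its log2 fold change was -0.21 ± 0.081, with an unadjusted p of 0.0225 and an edgeR adjusted p of 0.264. Ift74, which with Ift81 binds tubulin cargo, stood at 30.05, 30.5, 35.4, 30.1 and 35.1 CPM across W1 to W5, and at 40.6, 30.3, 35.6, 36.0 and 32.5 CPM across K1 to K5, and its groups overlapped (0.12 ± 0.086, edgeR adjusted p = 0.594). Ift20, which links the Golgi to the cilium and was the most abundant IFT gene per kilobase, stood at 55.0, 49.9, 53.2, 54.6 and 50.8 CPM across W1 to W5, and at 55.0, 53.2, 53.8, 60.5 and 56.6 CPM across K1 to K5 (0.084 ± 0.061, edgeR adjusted p = 0.602). It varied little, with a coefficient of variation of 4.30% in wild type. The other 7 had log2 fold changes from -0.16 (Ift57, a peripheral subunit) to 0.039 (Ift81). Ift27, a small GTPase that helps the BBSome leave the cilium, and Ift88, whose loss stops cilium growth, were at 0.038 and -0.052. Ift46, Ift80 and Ift172, further subunits of the complex, were at -0.089, -0.11 and -0.019.

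The 3 IFT-A genes had fold changes of either sign, none was called, and Ift140 alone had an unadjusted p under 0.05. Ift140, a core subunit of the return trains, stood at 51.3, 48.2, 51.8, 60.3 and 54.4 CPM across W1 to W5, and at 49.6, 46.5, 48.2, 42.1 and 44.8 CPM across K1 to K5. K1 lay within the wild-type range, K3 level with its lowest library, W2, and the other libraries labelled knockout below it. Its log2 fold change was -0.20 ± 0.072, with an unadjusted p of 0.0130 and an edgeR adjusted p of 0.202. Ift122, another core subunit, stood at 65.8, 67.3, 78.7, 67.4 and 73.1 CPM across W1 to W5, and at 75.9, 54.5, 84.0, 85.8 and 89.7 CPM across K1 to K5. K2 was the lowest of all 10 libraries and K3 to K5 the highest, and the log2 fold change was 0.15 ± 0.11 (edgeR adjusted p = 0.614). Ift43, a small peripheral subunit and the most abundant of the 3 per kilobase, stood at 22.7, 26.9, 22.7, 24.1 and 26.7 CPM across W1 to W5, and at 23.0, 25.5, 25.7, 29.8 and 30.1 CPM across K1 to K5 (0.12 ± 0.090, edgeR adjusted p = 0.599).

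Among the 11 genes of the connecting cilium and transition zone, none was called, and 3 had an unadjusted p under 0.05. Rpgrip1 (ENSMUSG00000057132.15, chromosome 14, 52110704 to 52163546, plus strand), which tethers the GTPase regulator Rpgr in the connecting cilium, stood at 770.1, 549, 579, 713 and 859.6 CPM across W1 to W5, and at 751, 746, 899.9, 928 and 1078 CPM across K1 to K5. Wild-type libraries spread widely, with W2 and W3 lowest and W1 and W5 above K1 and K2, and K5 was the highest of all. The log2 fold change was 0.34 ± 0.13, the largest of the 42 after Bbs7, with an unadjusted p of 0.0191 and an edgeR adjusted p of 0.243. Sdccag8, a centrosomal protein, stood at 21.9, 19.3, 23.9, 22.7 and 22.9 CPM across W1 to W5, and at 24.8, 23.1, 27.6, 26.8 and 24.6 CPM across K1 to K5. K1, K3, K4 and K5 lay above every wild-type library and K2 among them (0.19 ± 0.080, unadjusted p = 0.0275, edgeR adjusted p = 0.289).

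Nphp4, a transition zone scaffold, had a negative fold change and stood at 45.5, 39.5, 44.2, 47.0 and 43.0 CPM across W1 to W5, and at 34.2, 39.0, 37.0, 39.2 and 40.8 CPM across K1 to K5. Only W2 among the wild-type libraries lay within the range of the libraries labelled knockout. Its log2 fold change was -0.20 ± 0.070, with an unadjusted p of 0.0109 and an edgeR adjusted p of 0.185, and with 1 surrogate variable in the model it was called lower (edgeR adjusted p = 0.0369). Fam161a, a microtubule-binding protein of the connecting cilium's inner scaffold, was the most abundant of the 11 per kilobase. It stood at 257, 189.7, 277, 311 and 298 CPM across W1 to W5, and at 276, 222, 279.8, 308 and 303 CPM across K1 to K5, with W2 and K2 lowest in their groups (0.060 ± 0.12, edgeR adjusted p = 0.882).

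The 7 other genes of the connecting cilium had log2 fold changes from -0.12 to 0.086. They are Cep290 (0.037), which bridges microtubules and membrane, Rpgr (-0.12), Rpgrip1l (-0.049), a transition zone relative of Rpgrip1, and Lca5 (0.086), which couples to IFT. Ahi1 (-0.056) encodes jouberin, Iqcb1 (-0.014) a calmodulin-binding partner of Cep290, and Spata7 (0.026) a connecting cilium protein. Their edgeR adjusted p ran from 0.746 (Lca5) to 0.959 (Iqcb1).

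The 3 genes of the axoneme and of protein delivery had higher wild-type levels per kilobase than any gene above, and none was called, with an unadjusted p under 0.05 for Rp1l1 alone. Rp1l1 (ENSMUSG00000046049.7, chromosome 14, 63992506 to 64035025, plus strand), a doublecortin-family partner of the axonemal protein Rp1, stood at 909, 871, 977, 849 and 940.0 CPM across W1 to W5, and at 1051, 655, 684, 605 and 583 CPM across K1 to K5. K2 to K5 lay below all wild-type libraries, and K1 was the highest of the 10. The log2 fold change was -0.35 ± 0.13, with an unadjusted p of 0.0211 and an edgeR adjusted p of 0.256. Without K1, Rp1l1 was called lower at -0.53 (edgeR adjusted p = 0.00304). It was called too without W1, W2, K1 and K2 together, at -0.56 (edgeR adjusted p = 0.00876), and in no other of the 18 alternatives.

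Tulp1, a tubby-family protein that guides rhodopsin transport, stood at 1276, 1323, 1433, 1348 and 1459.9 CPM across W1 to W5, and at 1544, 1349, 1292, 1454 and 1351 CPM across K1 to K5, with overlapping groups (0.031 ± 0.079, edgeR adjusted p = 0.913). Rp1, which lines the axoneme and keeps discs stacked, had a log2 fold change of -0.17 (edgeR adjusted p = 0.584). It ranged from 1629 to 2092 CPM in wild type and from 1391 to 2117 CPM in libraries labelled knockout, where K1 was again the highest.

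None of the 4 disc genes was called or had an unadjusted p under 0.05. Prph2, a tetraspanin that shapes the disc rim, stood at 5271, 7224, 6437, 5715 and 6730.1 CPM across W1 to W5, and at 7253, 5293, 5366, 6221 and 5575 CPM across K1 to K5. W2 and K1 were the highest and the groups overlapped, with a log2 fold change of -0.079 ± 0.12 (edgeR adjusted p = 0.829). Rom1, its homologous partner at the rim, stood at 2375, 3401, 2824, 2457 and 2946 CPM across W1 to W5, and at 3314, 2642, 2802, 3163 and 2938 CPM across K1 to K5. W2 and K1 were the highest here too, and the log2 fold change was 0.086 ± 0.11 (edgeR adjusted p = 0.794). Cdhr1, a protocadherin at the site where new discs form, stood at 1389, 1358, 1597, 1317 and 1468 CPM across W1 to W5, and at 1510.1, 854, 1181, 1262 and 1158 CPM across K1 to K5. K1 lay within the wild-type range and K2 to K5 below it, K2 lowest (-0.26 ± 0.12, edgeR adjusted p = 0.366). Prom1, a membrane protein of forming disc edges, had a log2 fold change of 0.035 and ranged from 539 CPM in K2 to 893 CPM in K1.

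The ratio of Rom1 to Prph2 reads does not depend on library scaling. It was 0.451, 0.471, 0.439, 0.430 and 0.438 across W1 to W5, and 0.457, 0.499, 0.522, 0.508 and 0.527 across K1 to K5. K2 to K5 lay above all wild-type libraries, and K1 lay below W2. The means were 0.446 ± 0.0159 for wild type against 0.503 ± 0.0279 for the other group (SD, n = 5). The pair was picked after its values were seen, so no test is given.

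The summed disc genes, mostly Prph2 and Rom1, were highest and lowest in the same libraries as the summed rod markers. A list of 14 rod markers summed to 86889 CPM in W2 and 87710.3 CPM in K1, the highest of each group, and to 68491 CPM in W1 and 62906 CPM in K2, the lowest. The 4 disc genes summed to 12707 CPM in W2 and 12971 CPM in K1, again the highest, and to 9676 CPM in W1 and 9328 CPM in K2, again the lowest. Singly, Cdhr1 was highest in W3 and lowest in W4 among wild-type libraries, and Prom1 was highest in W5. In bulk retina, fewer rods and less RNA in each rod cannot be told apart. Within the rod list, Sag, the rod arrestin, was called lower (-0.67 ± 0.11, edgeR adjusted p = 0.00267), and the 13 other markers were not called. The list had a median log2 fold change of 0.0057 (8 positive, 6 negative). Besides Sag, Nr2e3 alone had an unadjusted p under 0.05, with a positive fold change (0.32 ± 0.10, edgeR adjusted p = 0.143). The share called was 7.14% of the list, against 2.03% of all tested genes. The part of rod content in the values of the disc and axoneme genes was not tested.

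**Figure D3:**
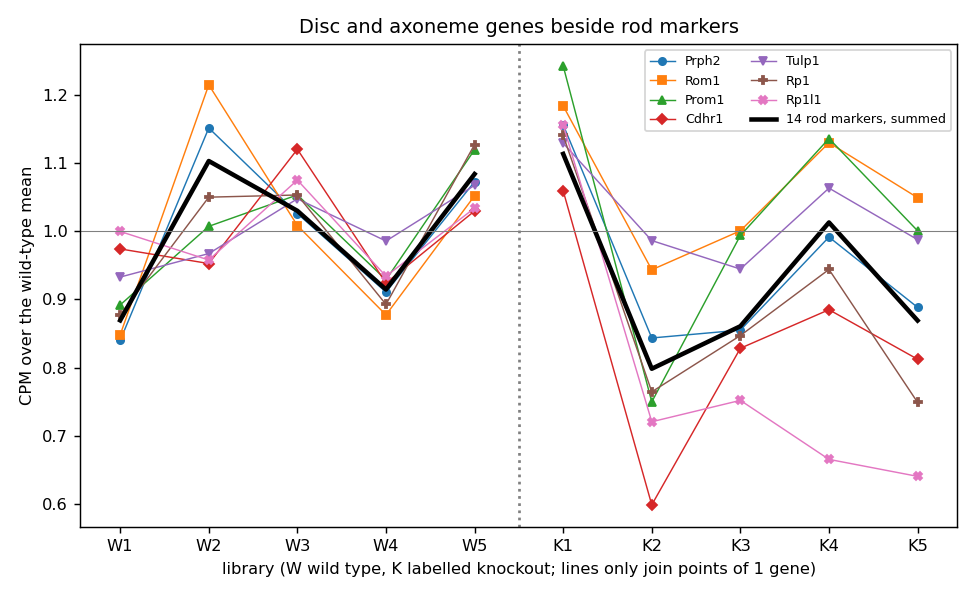
Level of the 4 disc and 3 axoneme genes in each library relative to the wild-type mean of that gene (y axis, CPM over wild-type mean), with the sum of 14 rod markers as the thick black line. Rod markers, Prph2 and Rom1 are highest in W2 among wild-type libraries and in K1 among the others, while Rp1l1 is low in K2 to K5 (583 to 684 CPM).

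Levels can be compared between genes only per kilobase of exon (CPM divided by the union of exons). Prph2 and Rom1 led in wild type, at 2090.4 ± 261 and 1846 ± 272 CPM per kilobase (SD, n = 5), and Prph2 was the higher of the pair in all 5 wild-type libraries. Cdhr1 (329 ± 25.5), Tulp1 (205 ± 11.5), Rp1 (151 ± 16.5), Rp1l1 (120.1 ± 6.82) and Prom1 (100.2 ± 9.22) followed. Then came Fam161a (60.7 ± 10.8), Rpgrip1 (57.1 ± 10.7) and Arl6 (56.2 ± 6.91), whose means differed by less than their SDs. All other BBSome, IFT and connecting cilium genes lay between 35.4 ± 3.85 (Bbs2) and 1.85 ± 0.0749 (Rpgrip1l) CPM per kilobase. In libraries labelled knockout Bbs7 lay at 32.1 ± 4.05 CPM per kilobase, next to Bbs2 at 35.5 ± 3.06, where in wild type Bbs7 lay at 18.7 ± 4.68. Over K1 to K5, Prph2 and Rom1 lay at 1979 ± 273 and 1959 ± 178 CPM per kilobase, and Rom1 was the higher of the pair in K3, K4 and K5.

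Some libraries stood low or high across many of the 42 genes. W2 was the lowest wild-type library in 19 genes, among them Bbs7, Bbs12, Rpgr, Rpgrip1, Fam161a and Cep290, although it was the highest in Prph2 and Rom1. Its Muller glia markers summed to 7708 CPM, against 5655 to 6230.0 CPM in the other wild-type libraries. K2 was the lowest of its group in 26 genes and K1 the highest in 21. The coefficient of variation had a median over the 42 genes of 8.85% in wild type and 11.9% in libraries labelled knockout, against 13.5% and 12.2% over all tested genes. Leaving out W1, W2, K1 and K2 together, a choice made after the data were seen, gave 2 calls among the 42 genes, Bbs7 and Rp1l1.

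**Figure D4:**
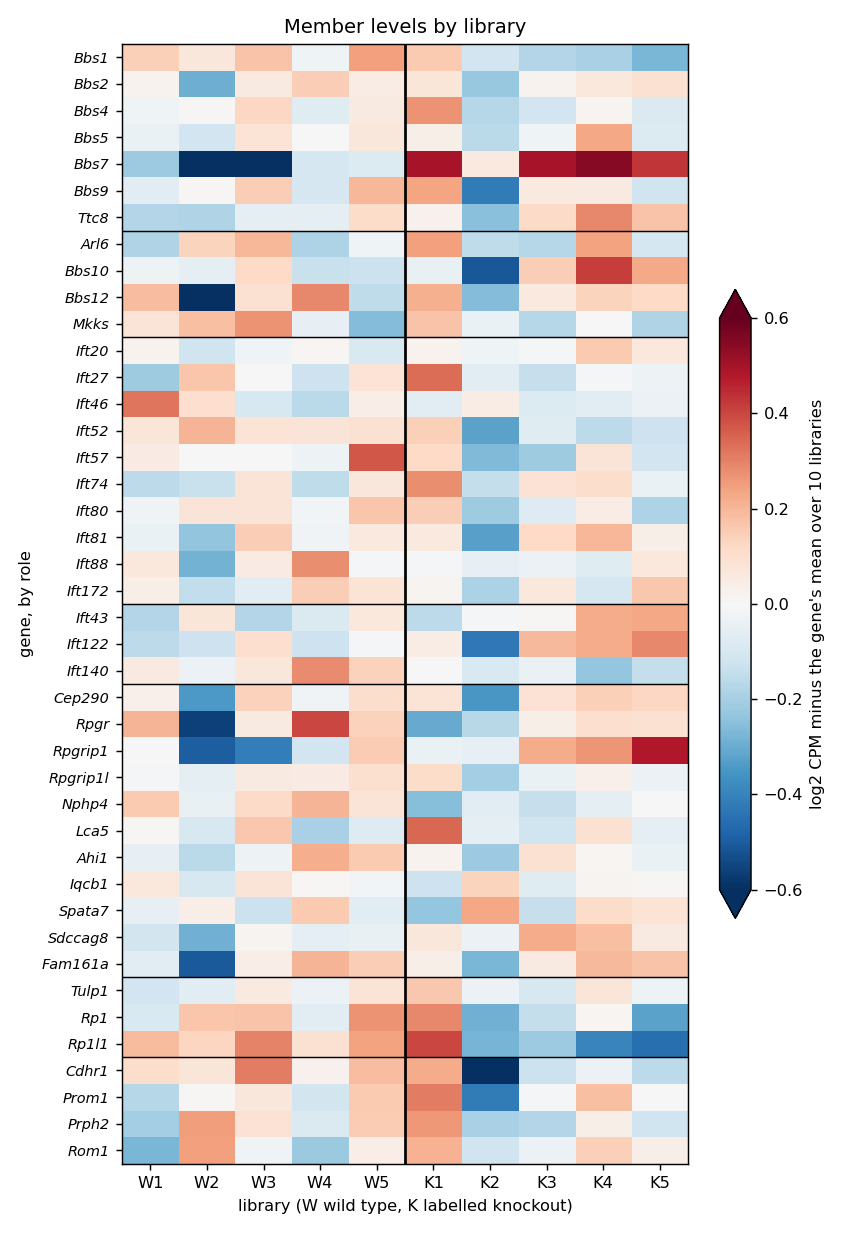
Level of each of the 42 genes (rows, grouped by role) in each library (columns), as log2 CPM minus that gene's mean over the 10 libraries, with colours ending at 0.6 in either direction. Bbs7 is blue or pale in W1 to W5 and pale or red in K1 to K5, W2 is blue in Bbs12, Rpgr, Rpgrip1 and Fam161a, and K2 is blue in most rows.

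The genes beside Bbs7 on chromosome 3 were read next, after their values had been seen. Within 1 Mb of Bbs7, 29 other genes were tested and 3 were called, all higher in libraries labelled knockout (10.3%, against 0.859% of all tested genes called higher). Ccna2, which encodes cyclin A2 of the cell cycle, starts 991 bases beyond the end of Bbs7 on the same strand. It stood at 23.0, 11.5, 18.8, 28.8 and 22.2 CPM across W1 to W5, and at 26.4, 29.8, 37.8, 45.9 and 50.5 CPM across K1 to K5 (0.87 ± 0.21, edgeR adjusted p = 0.0451). W4 lay above K1, so its groups overlapped. As in Bbs7, W2 was the lowest library. Exosc9, a subunit of the RNA exosome that overlaps the end of Ccna2 on the other strand, stood at 17.0, 15.4, 13.7, 16.3 and 18.1 CPM across W1 to W5, and at 23.3, 20.9, 20.8, 19.1 and 20.5 CPM across K1 to K5 (0.38 ± 0.090, edgeR adjusted p = 0.0420). Cetn4, a centrin, overlaps Bbs12 by 155 bases on the other strand and stood at 6.05, 4.48, 4.31, 7.02 and 6.69 CPM across W1 to W5, and at 8.88, 8.86, 10.6, 10.6 and 10.01 CPM across K1 to K5 (0.78 ± 0.15, edgeR adjusted p = 0.0108). Every library labelled knockout lay above every wild-type library in Exosc9 and Cetn4.

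Cetn4 was called in all 18 alternatives, Ccna2 in 9 (adjusted p from 7.14e-05 to 0.138) and Exosc9 in 8 (0.00536 to 0.201). Ccna2 lost its call without W1, W3, W5, K3, K4 or K5, and Exosc9 without any 1 library other than W5. Over all 42 genes, 7 of 223 tested neighbours within 100 kb were called (3.14%), and 5 of 218 without those near Bbs7 alone (2.29%). All of these were higher in libraries labelled knockout. Of all tested genes, 2.03% were called in either direction and 0.859% higher. Strand handling in counting is not given, so reads of overlapping genes cannot be told apart. By whole gene spans, introns included, 23 of the 42 genes overlap another gene of the table, and Bbs7 is not among them.

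**Figure D5:**
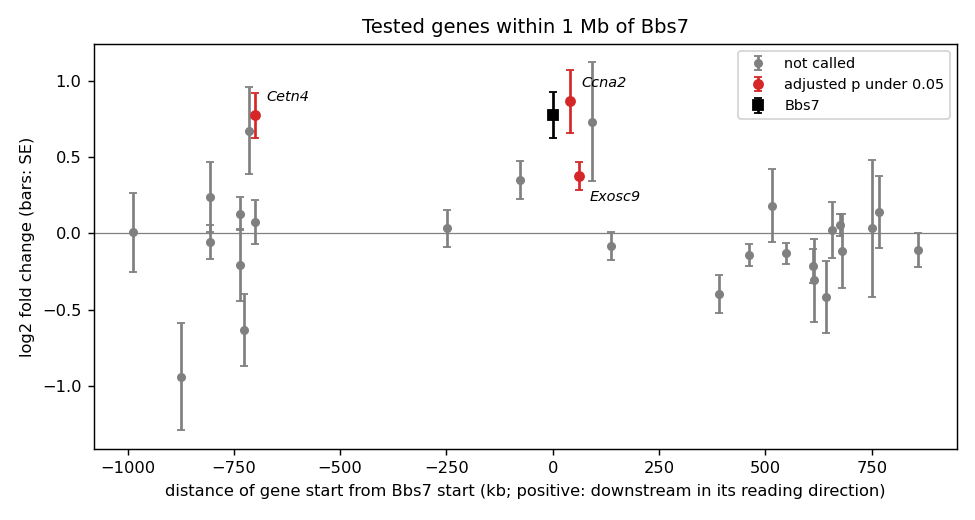
Log2 fold change with its SE (y axis) of the 29 other genes tested within 1 Mb of Bbs7, against the distance of each gene start from the Bbs7 start in kb (x axis). Bbs7 is the black square, and the 3 red points are Ccna2 (0.87), Exosc9 (0.38) and Cetn4 (0.78).

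Other genes of the same machinery were read from lists that hold none of the 42. Of 22 further trafficking genes (IFT, BBSome, kinesin-2 and dynein-2 subunits), 1 was called lower and none higher (4.55%, against 2.03% of all tested genes). Their median log2 fold change was -0.093 (7 positive, 15 negative). The called gene was Ttc21b, an IFT-A subunit, at 32.4, 30.1, 33.4, 29.1 and 36.8 CPM across W1 to W5, and at 28.3, 17.4, 21.5, 23.4 and 23.7 CPM across K1 to K5. The groups did not overlap (-0.50 ± 0.11, edgeR adjusted p = 0.0282). It was called in 12 of 18 alternatives and lost its call without W1, W3, W5, K3, K4 or K5 (adjusted p from 0.00193 to 0.0757 over all). Of 26 further connecting cilium genes, 1 was called lower (3.85%, against 2.03% of all tested genes). That gene was Tctn2, a tectonic of the transition zone, at 48.6, 52.2, 50.5, 51.9 and 53.7 CPM across W1 to W5, and at 45.3, 36.8, 35.8, 42.3 and 44.6 CPM across K1 to K5 (-0.33 ± 0.076, edgeR adjusted p = 0.0357). It was called in 10 of 18 alternatives and lost its call without W1, W3, W4, W5, K2, K3 or K4, and without W1, W2, K1 and K2 together. That list had a median of -0.016 (12 positive, 14 negative). Of 8 carriers of lipid-modified proteins none was called, and Arl2bp, a partner of the cilium GTPase Arl3, alone had an unadjusted p under 0.05 (-0.20 ± 0.077, edgeR adjusted p = 0.235). DESeq2 also called Wdr60 among the trafficking genes and B9d1, with others, among the connecting cilium genes, and none of the carriers.

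Among 9 tested markers of motile cilia, 1 was called (11.1%, against 2.03% of all tested genes). Tekt2, an axonemal tektin, was called higher, at 0.382, 0.309, 0.264, 0.225 and 0.266 CPM across W1 to W5, and at 0.436, 0.565, 0.668, 0.780 and 0.734 CPM across K1 to K5 (1.14 ± 0.28, edgeR adjusted p = 0.0493). That level is low, and the call held in 3 of the 17 alternatives in which the gene was tested, and was lost without any 1 library other than K1. DESeq2, which called 3.7% of all tested genes, called Foxj1, a regulator of motile cilia, and not Tekt2. The 9 markers had a median log2 fold change of -0.014 (4 positive, 5 negative). An unadjusted p under 0.05 was seen in 3 of them (2 higher, 1 lower). Among markers of cones, of the other retinal cell types and of the pigment epithelium, edgeR called none, and DESeq2 called 1, the bipolar gene Cabp5. Each of these lists had 1 gene with an unadjusted p under 0.05, except the pigment epithelium list with 0.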

How the data were processed

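The authors deposited 1 table of whole-number read counts per gene, not normalized, for 10 retinal libraries grouped here by the genotype label. Tools given per the submitters' processing notes were STAR 2.5.3a, featureCounts 1.15.2, DESeq2 1.14, FastQC and bcl2fastq, and the build was GRCm38.p5. Strand, multi-mapping and overlap settings are not given in the sources used here. Per the file headers, further columns give the authors' own comparison, knockout over control: deposited log2 fold changes and p-values, used only for 1 count, and a deposited mean signal, not used.

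Counts were filtered with filterByExpr (minimum count 10, total 15), scaled with TMM factors and tested with edgeR 4.0.16 (glmQLFit, glmQLFTest; genotype as the only term). Log2 fold changes have an SE worked back from the F statistic. CPM uses the TMM-scaled library total. Alternatives were DESeq2 1.42.0, limma-voom (3.58.1), other factors and filters, 1 surrogate variable (sva 3.50.0) and leaving out libraries. The fits were tested on simulated data with known changes. At an adjusted p under 0.05, 4.26% of edgeR calls and 4.93% of limma-voom calls were false there. With DESeq2 13.4% were false, above the 5% aimed at, so genes called by DESeq2 alone carry that limit. The least different pair of libraries differed by 11.0 times sampling noise (chi-square per degree of freedom), so none was merged. Exon lengths come from GENCODE M21 (GRCm38), where 37 of the 42 genes have the deposited coordinates. Promoter windows are RefSeq's, GRCm38.p6.

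The 42 genes and all lists were chosen with earlier results of these data known. Values in all libraries are given for genes that were called, had no overlap between groups, had an unadjusted p under 0.05, or had the largest fold change in either direction or the highest level per kilobase of their role. Of the other lists, called genes are named, or the smallest p in a cilium list. Other genes named were chosen after their values were seen. Some listed or neighbouring genes are not reported here. Of the listed genes, 1 is not analysed here.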

Additional observations from a re-analysis of the deposited data

Results flagged for a closer look

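In 7 of the 84 groups of 5 libraries (8.33%) 1 library stood apart from the other 4 by Dixon's 95% criterion, a gap above 0.71 of the whole range, where chance gives about 1 in 20. K2 was low in Bbs2 (99.9 CPM, others 119 to 125), Bbs7 (135 CPM, others 175 to 189) and Cep290 (110 CPM, others 148 to 155). K1 was high in Ift27 (24.2 CPM, others 17.5 to 19.1) and Rp1l1 (1051 CPM, others 583 to 684). W2 was high in Ift52 (37.0 CPM, others 33.8 to 34.2) and W5 in Ift57 (32.4 CPM, others 24.5 to 25.9).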

How the results depend on the processing

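Bbs7 was called higher under all 18 alternatives, and the count of the 42 genes called stayed at 1 except for 2 with 1 surrogate variable (Bbs7 higher, 1 lower, Nphp4), 3 without K1 (Bbs7 higher, 2 lower, Bbs1 and Rp1l1) and 2 without W1, W2, K1 and K2 together (Bbs7 higher, 1 lower, Rp1l1). Over the settings that leave out 1 library the count ran from 1 to 3, with 0 to 2 lower. Of all tested genes, 385 were called (163 higher, 222 lower). The count was 702 (314 higher, 388 lower) with DESeq2, 704 (298, 406) with no low-count filter and 692 (330, 362) with 1 surrogate variable. Leaving out 1 library gave 211 to 542 calls, 71 to 253 higher and 140 to 289 lower. By over 1.5 times, the total moved without K4 (211) or K5 (240), the count of higher genes without W2 (253), K3 (93), K4 (71) or K5 (84), and that of lower genes without K4 (140). The cause of these differences was not tested. Signs near 0 turned with the library left out: log2 fold changes ran over -0.036 to 0.083 for Arl6, -0.058 to 0.060 for Bbs2, -0.041 to 0.13 for Fam161a and -0.0071 to 0.059 for Tulp1, none called. Without W1, W2, K1 and K2 together they were -0.0094 for Arl6, -0.024 for Bbs2 and -0.051 for Tulp1. The median log2 fold change of the 42 genes stayed between -0.038 and 0.033. No paired analysis was possible because the labels carry no replicate numbers. Precision differed between genes, with an SE of the log2 fold change from 0.061 (Ift20) to 0.15 (Bbs7) over the 42.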

Other observations

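Beside Ttc21b, 4 further trafficking genes outside the 42 had an unadjusted p under 0.05, each with a lower level in libraries labelled knockout and none called by edgeR. They were Wdr60 and Dync2h1, subunits of the dynein-2 motor that returns IFT trains (-0.33 ± 0.093 and -0.28 ± 0.100, SE, n = 5), Wdr35, an IFT-A subunit (-0.21 ± 0.085), and Kif3c, a kinesin-2 subunit (-0.21 ± 0.088). Their edgeR adjusted p were 0.0957, 0.208, 0.265 and 0.303. In all, 5 of the 22 trafficking genes reached an unadjusted p under 0.05, against 13.8% of all tested genes. Among IFT-A genes, Ttc21b, Ift140 and Wdr35 stood at log2 fold changes of -0.50, -0.20 and -0.21, Wdr19 at -0.13 (unadjusted p = 0.110) and Ift122 and Ift43 at 0.15 and 0.12.

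In the list of connecting cilium genes outside the 42, Cep164 and Cep250, proteins of centrioles, stood at 0.38 ± 0.13 and 0.63 ± 0.28 on the log2 scale (fold change and SE), and the transition zone gene B9d1 at -0.48 ± 0.13. These 3 had an unadjusted p under 0.05 and were not called by edgeR, with adjusted p of 0.178, 0.318 and 0.0715.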
